A study of Mus musculus with 4 samples.

Results

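The UDP-glucuronosyltransferase (Ugt) and cytosolic sulfotransferase (Sult) genes were followed in mouse liver 48 h after surgery. Members were all probe sets whose platform annotation gave exactly 1 gene symbol, that symbol belonging to the Ugt1, Ugt2 or Ugt3 families (subfamilies a and b) or to the Sult1 to Sult5 families. There were 26 such probe sets of 45037 on the array without its controls, and they named 22 genes, 10 Ugt and 12 Sult. No Ugt1a gene had a probe set of its own. The 4 arrays were made from total RNA of mature liver of C57BL/6J mice, with biotin as the label. Sham-operated animals gave 2 of them, and animals that had undergone partial hepatectomy gave the other 2. In that operation some liver lobes are cut away and the rest grows back. Both groups were sampled 48 h after surgery. All mice were of that strain, no genetic change or drug is named, and the sources used here do not give the age of the animals or whether RNA was pooled. The study describes the arrays of each group as biological duplicates. The p-values rest on the spread between 2 arrays per group and, with more weight, on that of probe sets of like brightness (2 residual and 6.02 prior degrees of freedom).

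Glucuronosyltransferases of the endoplasmic reticulum join a sugar acid from UDP-glucuronate to drugs, bilirubin, bile acids and steroids. Sulfotransferases of the cytosol transfer sulfate from the donor PAPS to phenols, catecholamines, steroids and bile acids. Both reactions make lipophilic compounds soluble for export into bile or urine, and the liver is a main site of both. Ugt3a enzymes are close relatives that, in human, use other UDP-sugars as donors.

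The promoters of Ugt2a3, Ugt3a1 and Ugt2b1 are shown first because their genes were among those lower after hepatectomy and because each holds letters of a site for a liver factor. The windows run from 250 bases before to 50 bases after the RefSeq start of the gene (GRCm38.p6), 5′ to 3′ on the strand of the gene. Capitals in the first and second mark GTTAAT on either strand, one arm of the palindromic site of HNF1, a homeodomain factor of liver genes. Capitals in the third mark TTATGTAA on either strand, the D-box bound by PAR bZIP factors such as Dbp.
Ugt2a3, chr5:87337146-87337445, minus strand: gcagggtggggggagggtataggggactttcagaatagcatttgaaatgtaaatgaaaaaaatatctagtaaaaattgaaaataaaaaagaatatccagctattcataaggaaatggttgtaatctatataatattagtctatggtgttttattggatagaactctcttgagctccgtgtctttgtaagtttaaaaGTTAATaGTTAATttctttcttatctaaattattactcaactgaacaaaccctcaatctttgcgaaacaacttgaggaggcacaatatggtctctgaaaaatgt
Ugt3a1, chr15:9279579-9279878, plus strand: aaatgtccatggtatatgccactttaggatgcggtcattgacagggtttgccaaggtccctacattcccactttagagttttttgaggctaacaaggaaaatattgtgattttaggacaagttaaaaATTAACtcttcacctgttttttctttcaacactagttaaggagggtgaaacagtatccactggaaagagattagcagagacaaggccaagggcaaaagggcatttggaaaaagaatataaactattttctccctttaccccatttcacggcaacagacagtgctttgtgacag
Ugt2b1, chr5:86926454-86926753, minus strand: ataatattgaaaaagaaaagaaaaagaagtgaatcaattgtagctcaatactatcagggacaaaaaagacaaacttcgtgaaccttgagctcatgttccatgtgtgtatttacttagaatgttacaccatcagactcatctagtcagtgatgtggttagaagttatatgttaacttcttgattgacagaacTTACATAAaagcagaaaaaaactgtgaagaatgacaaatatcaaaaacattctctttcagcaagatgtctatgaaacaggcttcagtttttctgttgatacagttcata
Ugt2a3 held 2 matches, which began 54 and 47 bases before the start; that of Ugt3a1 began 123 bases before it and that of Ugt2b1 59 bases before it. Of the 22 member genes 19 had windows, 22 windows in all, and the others were Sult2a2, Sult4a1 and Ugt3a2. A member gene was counted if any of its windows held a match, while the shares over all promoters count windows. GTTAAT was in 4 of the 19 (Sult1a1, Sult1d1, Ugt2a3 and Ugt3a1) and in 7.1% of 32851 promoter windows of the same length. TTATGTAA was in Ugt2b1 alone among the 19 and in 0.938% of all windows. Of the genes with GTTAAT, Sult1a1 read higher after hepatectomy and Sult1d1 lower, and neither difference passed the test given below. Ugt2b38, Sult1c2 and Sult5a1, which were also lower after hepatectomy, held neither GTTAAT nor TTATGTAA. Longer forms of the HNF1 site were also searched and are not reported here. The E-box CACGTG was in 0 of the 19 and in 7.15% of all windows, and TATAAA was in 4 genes (Sult1c1, Sult1d1, Sult2a8 and Ugt3a1) and in 13.6%. The motifs and the 3 promoters were chosen after the members' values and windows had been looked at, and a match is a string of letters, not a measured binding site.

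By limma at an adjusted p of 0.05, 6 of 17 tested member genes were called lower after hepatectomy and 0 were called higher. Over all genes tested the shares were 1.09% lower and 3.57% higher. The 6 were Ugt2b1, Ugt2b38, Ugt2a3 and Ugt3a1 among the glucuronosyltransferases and Sult1c2 and Sult5a1 among the sulfotransferases. The falls of Ugt2b1, Ugt2a3 and Ugt3a1, read from their group means, left 61.7%, 59.2% and 48.8% of the sham signal, and those of Ugt2b38, Sult1c2 and Sult5a1 left 17.0%, 21.2% and 19.5%. Signals of the other Ugt2b genes differed less or did not pass the test. In whole-liver RNA, fewer cells of a type and less RNA per cell cannot be told apart.

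The test was limma on log2(signal + 8.58), two-sided, with Benjamini-Hochberg adjustment over the 27022 probe sets that passed a filter on dim signals, and a call needed an adjusted p of at most 0.05. Of the 26 member probe sets 20 passed the filter, standing for 17 genes, and each gene was read from its brightest tested probe set. Of the 17 genes, 6 were called lower, against 1.09% of the 12560 genes tested, and 0 were called higher, against 3.57%. At an unadjusted p under 0.05, 11 member genes were lower and 2 were higher. The share of all genes at that p is not given here, so this and later counts at an unadjusted p have no background beside them. Over probe sets, 7 of 20 were called lower, against a background of 0.877%. The log2 fold change was below 0 in 15 of the 17 genes, against 47.1% of all genes tested. The groups did not overlap in 14 of the 20 probe sets, with hepatectomy lower, against 23.3% of all probe sets tested, and in 2 with hepatectomy higher, against 24.4%. The median log2 fold change of the 17 genes was -0.70, and that of all genes tested was 0.02. Because probe sets had to be bright enough on average to be tested, these counts describe the members that passed and not the whole family.

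**Figure D1:**
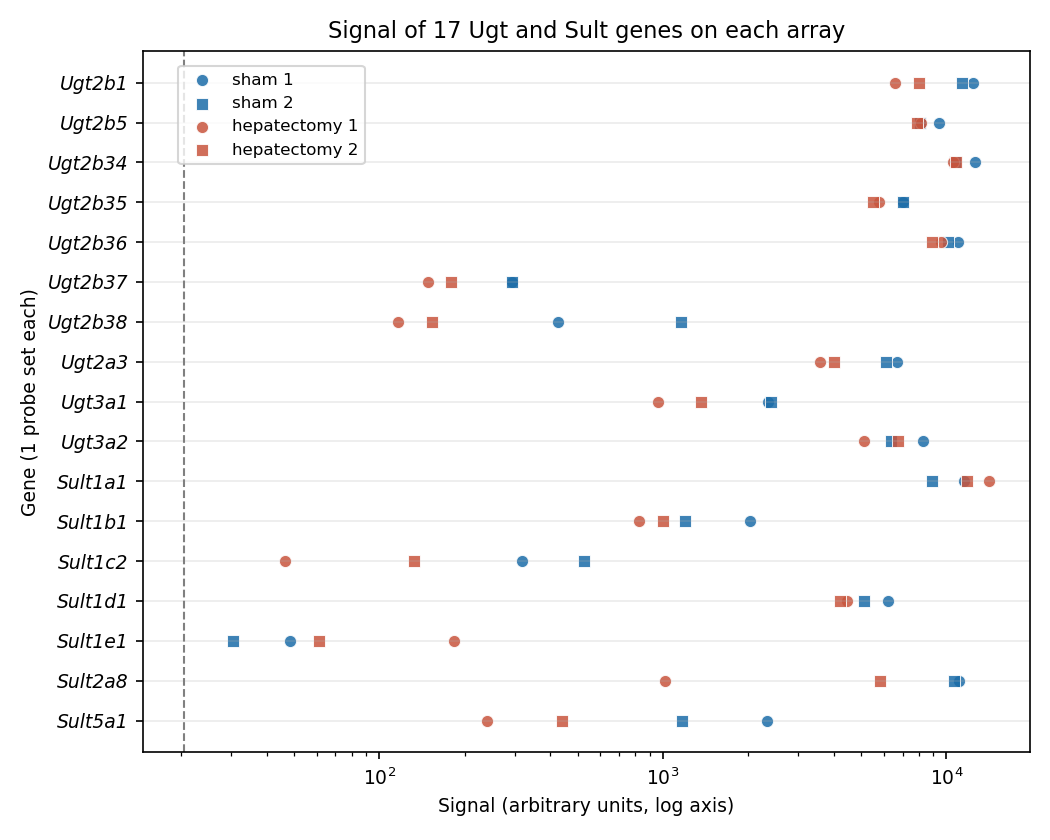
Signal of the probe set that stands for each of the 17 tested genes (x axis, arbitrary units, log scale) on the 2 sham arrays (blue) and the 2 hepatectomy arrays (red), circles for replicate 1 and squares for replicate 2; the dashed line at 20.4 is the highest signal of the bacterial control probe sets. Both red symbols lie left of both blue ones for the 6 called genes, and the 2 red symbols of Sult2a8 lie far apart, at 1020 and 5808.

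The calls depended on the sham arrays and on the way the spread was estimated. Without sham replicate 1, Ugt2b38 alone kept its call, and without sham replicate 2, Sult5a1 alone did; a group of 1 array is then assumed to vary like the other. Without the filter, or without a mean-variance trend, limma called 0 member genes lower, while 11 and 8 were lower at an unadjusted p under 0.05. Without hepatectomy replicate 1, 6 member genes were called lower, but Ugt2b1 was lost (adjusted p = 0.0846) and Sult2a8 was added (adjusted p = 0.00674). Without hepatectomy replicate 2, the log2 fold change of Sult2a8 was -3.40 and that of Sult1e1 was 2.03. With either hepatectomy array left out, the gap of that pair leaves the fit, so a call gained there is no support.

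The facts of the arrays that touch these values are few. After trimming 2% at each end, every array had a mean signal of 500.003, so the authors had scaled them to a common mean. Replicates differed by a median of 0.23 (sham) and 0.27 (hepatectomy) on the log2 scale across the 27022 probe sets, and arrays of different groups by 0.30 to 0.34. Hepatocyte markers were abundant on all arrays: the summed signal of Alb, Ttr, Apoa1, Cps1, Tat and F2 ranged from 82201 to 95208. The summed signal of 5 cholangiocyte markers was 459 and 530 in sham liver and 1279 and 744 after hepatectomy. In their brightest probe sets Krt19 (2.49-fold), Sox9 (2.26-fold) and Krt7 (1.64-fold) were higher on both hepatectomy arrays than on either sham array. The same held for 24.4% of all probe sets tested. Epcam, also tested, overlapped between the groups, at 99.3 and 57.9 in sham liver and 142 and 43.8 after hepatectomy. Cftr was too dim to be tested. By limma 0 of the 4 tested passed at an adjusted p of 0.05, while 3 had an unadjusted p under 0.05. Of 4 intestinal markers Fabp2 alone was tested, and it rose from 5143 and 5611 to 10340 and 10947 (limma adjusted p = 0.00352). The others were dim: on every array Lct was at or under 13.6, Muc2 at or under 24.4 and Vil1 at or under 39.8. The part of cells with these markers in the members' values was not tested. Hepatectomy replicate 1 stood apart. Of 6 adrenal cortex markers, 5 were more than 3-fold above every other array there in their brightest probe set. The sixth, Nr5a1, was so in its dimmer probe set, which read 109 there and at most 3.66 elsewhere. The list summed to 12362 against 200 to 235 on the other arrays. Of 4 measured fat cell markers 3 were so, with sums of 2287 on that array, 277 on hepatectomy replicate 2 and 66.7 and 150 on the sham arrays. No adrenal or fat marker was at 0, but Mc2r was at or under 5.47 on the other arrays. Every called member gene read lower on hepatectomy replicate 1 than on replicate 2, so each fall was smaller without that array. The log2 fold changes were then -0.56 (Ugt2b1), -2.14 (Ugt2b38), -0.68 (Ugt2a3), -0.80 (Ugt3a1), -1.57 (Sult1c2) and -1.88 (Sult5a1). The part of the adrenal and fat RNA in these values was not tested. All 4 arrays looked male: the brightest probe set of the Y-linked gene Eif2s3y read 3232 to 4202, and no Xist probe set read above 26.5.

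Ugt2b enzymes conjugate steroids, bile acids and many drugs, and 7 genes of the subfamily were measured by 8 probe sets. Ugt2b1 read 12369 and 11387 in sham liver and 6612 and 8034 after hepatectomy. The groups did not overlap, and the mean went from 11878 ± 695 to 7323 ± 1006 (SD, n = 2 arrays per group). Its log2 fold change was -0.70 ± 0.13 (SE; limma adjusted p = 0.0256). Without hepatectomy replicate 1 it was -0.56 and no longer passed (adjusted p = 0.0846).

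Ugt2b38 read 428 and 1157 in sham liver and 116 and 154 after hepatectomy. The sham arrays differed from each other by more than the hepatectomy arrays did, yet both lay above both of them. Limma gave a log2 fold change of -2.33 ± 0.43 (adjusted p = 0.0271), the largest fall among the 17 genes. It was -3.03 when sham replicate 1 was left out. Leaving out the other sham array gave -1.62, which did not pass (adjusted p = 0.0964).

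The other Ugt2b genes did not pass. Ugt2b37 read 293 and 293 in sham liver and 148 and 178 after hepatectomy, without overlap, with a log2 fold change of -0.82 ± 0.25 (adjusted p = 0.14). Ugt2b35 read 7055 and 7030 against 5767 and 5522, also without overlap (-0.32 ± 0.11, adjusted p = 0.201). Ugt2b37 differed by more than the called Ugt2b1 and Ugt2a3 did, but its SE was wider. Ugt2b35 differed by less than either.

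Ugt2b36, Ugt2b5 and Ugt2b34 differed least. Ugt2b36 read 10983 and 10135 against 9587 and 8909 (-0.19 ± 0.11, adjusted p = 0.438). Ugt2b5 read 9453 and 8075 against 8102 and 7890 (-0.13 ± 0.12, adjusted p = 0.671), with overlap between the groups. Ugt2b34 had 2 tested probe sets with log2 fold changes of -0.13 ± 0.11 and -0.11 ± 0.11, and its groups overlapped in both. The signals of these 3 genes lay between 7853 and 12629, while the highest signal of any probe set on an array was between 18786 and 21402. Whether such bright probe sets still follow the amount of RNA in proportion was not tested. Ugt2b genes are similar in sequence, and how far their probes read each other's transcripts was not tested either.

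Ugt2a3, whose human counterpart glucuronidates bile acids, was the only Ugt2a gene with a probe set of its own. It read 6704 and 6121 in sham liver and 3585 and 4009 after hepatectomy. All hepatectomy values lay below all sham values. The log2 fold change was -0.76 ± 0.13 (adjusted p = 0.0197), and it ranged from -0.84 to -0.68 over the alternative settings. That range does not show the calls, since the filter and the trend leave the fold change as it is. The call of Ugt2a3 was lost without either sham array, without the filter and without the trend. Its promoter was the first of those printed above.

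Ugt3a1 was measured by 2 probe sets, and both were called. The brighter read 2352 and 2410 in sham liver and 963 and 1362 after hepatectomy, with a log2 fold change of -1.05 ± 0.20 (adjusted p = 0.0282). The other read 1845 and 1744 against 839 and 1017, with a log2 fold change of -0.95 ± 0.17 (adjusted p = 0.0269). The groups did not overlap in either probe set, and hepatectomy replicate 1 was the lower of the pair in both. Ugt3a2, its neighbour in the same subfamily, read 8277 and 6367 against 5108 and 6763. Its groups overlapped, and the difference of -0.30 ± 0.18 did not pass (adjusted p = 0.451). The difference between the changes of Ugt3a1 and Ugt3a2 was not tested.

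**Figure D2:**
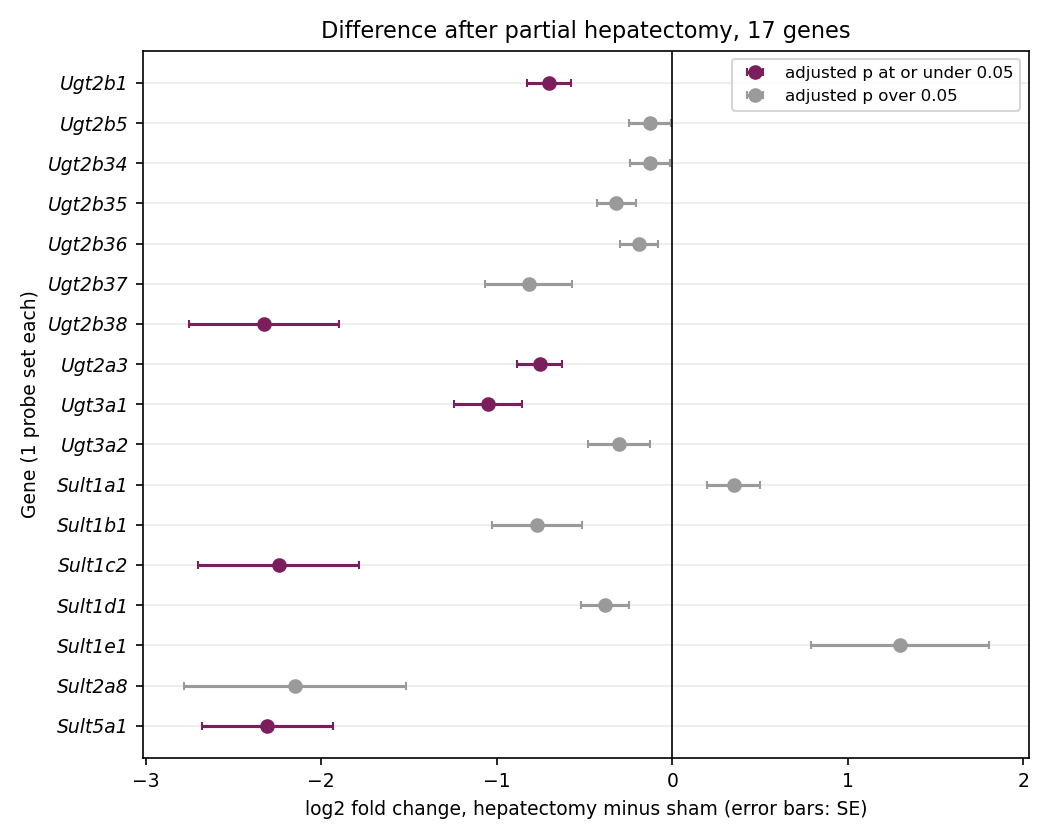
Log2 fold change of the 17 tested genes (x axis, hepatectomy minus sham; bars are SE, n = 2 arrays per group), grouped by subfamily, with called genes in purple. All 10 Ugt genes and 5 of 7 Sult genes lie left of 0, and Sult1a1 (0.35) and Sult1e1 (1.30) lie right of it.

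The Ugt1a genes share their last exons, and the 3 probe sets for them each carried 8 Ugt1a symbols, so no gene was named from them. Their log2 fold changes were -0.25 ± 0.11, -0.19 ± 0.10 and -0.20 ± 0.15, and 0 of the 3 passed (adjusted p from 0.295 to 0.579; unadjusted p from 0.048 to 0.221). The first read 8158 and 8265 in sham liver and 6889 and 6922 after hepatectomy. On that probe set both hepatectomy arrays lay below both sham arrays, and its difference from the called genes was not tested. A probe set with both Ugt2a1 and Ugt2a2 symbols was too dim to be tested, at 42.0 and 51.4 against 18.2 and 6.70.

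Sulfotransferases divided more widely, from a log2 fold change of -2.31 to 1.30 over 7 tested genes. Sult5a1, a sulfotransferase of little known substrate range, read 2321 and 1164 in sham liver and 239 and 441 after hepatectomy. Both hepatectomy arrays lay far below both sham arrays. Its log2 fold change was -2.31 ± 0.37 (adjusted p = 0.0163). Leaving out sham replicate 1 gave -1.81, which did not pass (adjusted p = 0.109), and leaving out the other gave -2.80, which did (adjusted p = 0.0146).

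Sult1c2 read 318 and 526 in sham liver and 46.6 and 133 after hepatectomy. The groups did not overlap, and the log2 fold change was -2.24 ± 0.46 (adjusted p = 0.0399). This call was the closest to the threshold of the 6, and it was lost when sham replicate 1 (adjusted p = 0.101) or 2 (adjusted p = 0.208) was left out and where the probe sets of every gene were averaged (adjusted p = 0.0568). Sult1c1, the other measured member of that subfamily, was at or under 7.69 on every array.

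Sult2a8, a mouse liver sulfotransferase that acts on bile acids, had one of the widest differences without a call. It read 11087 and 10611 on the sham arrays, 1020 on hepatectomy replicate 1 and 5808 on replicate 2. Both hepatectomy arrays lay below both sham arrays, but they differed from each other by 2.50 on the log2 scale. Limma gave a log2 fold change of -2.15 ± 0.63 (adjusted p = 0.13). With either hepatectomy array left out that gap leaves the fit, and the spread comes from the sham pair and limma's prior, so that passing is no support: the value was -0.90 ± 0.16 without replicate 1 (adjusted p = 0.00674) and -3.40 ± 0.17 without replicate 2 (adjusted p = 7.61e-07). It also passed with arrays centred on their medians (-2.24, adjusted p = 0.0298). The direction was therefore shared by both arrays, and the size depended on which was read.

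Of 5 measured male-biased liver genes, 2 were lowest on hepatectomy replicate 1 and 3 on hepatectomy replicate 2. All 5 were lower on both hepatectomy arrays than on either sham array, against 23.3% of all probe sets tested. Hsd3b5, a ketosteroid reductase of male mouse liver, read 5664 and 7358 on the sham arrays, 281 on hepatectomy replicate 1 and 4438 on replicate 2. Slco1a1, an organic anion uptake transporter, read 8629 and 7327 against 1639 and 6445. The other 3 differed little between the hepatectomy arrays: Cyp2d9 read 8249 and 7803 there, Cyp4a12a 3189 and 3010, and Elovl3 1513 and 1261. The summed signal of the 5 was 30459 and 31101 on the sham arrays, 14872 on hepatectomy replicate 1 and 22958 on replicate 2. By limma 0 of the 5 passed at an adjusted p of 0.05. The unadjusted limma p was 0.00667 for Cyp2d9, 0.0183 for Cyp4a12a, 0.0352 for Slco1a1, 0.0359 for Hsd3b5 and 0.112 for Elovl3. The 3 measured female-biased genes, Cyp2b9, Cyp2b13 and Cyp3a44, summed to 101 and 189 against 107 and 245. The part of these genes, or of the adrenal and fat RNA, in the value of Sult2a8 was not tested.

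Sult1e1, the estrogen sulfotransferase, was 1 of 2 tested members that were higher on both hepatectomy arrays. It read 48.2 and 30.4 in sham liver and 184 and 61.1 after hepatectomy, with the highest value on the array that also held fat and adrenal markers. The log2 fold change was 1.30 ± 0.51 and did not pass (adjusted p = 0.25). It was 0.56 without hepatectomy replicate 1 and 2.03 without replicate 2. With either left out, the gap of 1.46 between them on the log2 scale leaves the fit, so a call gained there is no support. The part of the fat and adrenal RNA in the value of Sult1e1 was not tested.

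Sult1a1, the phenol sulfotransferase, read 11549 and 8915 in sham liver and 14184 and 11790 after hepatectomy. The groups did not overlap, though the highest sham and the lowest hepatectomy value were close. Its log2 fold change was 0.35 ± 0.15 and did not pass (adjusted p = 0.296).

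Sult1b1, which acts on thyroid hormones and phenols, read 2021 and 1197 against 826 and 998 (-0.77 ± 0.26, adjusted p = 0.177). Without sham replicate 1 it was -0.40 (adjusted p = 0.735). Sult1d1, a mouse sulfotransferase of catecholamines, had 2 tested probe sets, at -0.38 ± 0.14 and -0.50 ± 0.17, neither called (adjusted p of 0.212 and 0.191). The brighter read 6212 and 5115 against 4446 and 4198, lower on both hepatectomy arrays.

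No probe set passed the filter for 5 member genes: Sult1c1, Sult2a2, Sult2b1 (a cholesterol sulfotransferase), Sult3a1 and Sult4a1 (known from brain). Their 6 probe sets read from 0.474 to 26.4. In 5 of these 6 every array was at or under 20.4, the highest signal of 27 bacterial control probe sets, and no fold is given for them. The exception was 1 of 2 probe sets of Sult4a1, which read 1.31 and 2.40 on the sham arrays, 26.4 on hepatectomy replicate 1 and 9.95 on replicate 2. It was above the control level on 1 array alone, the one with adrenal and fat markers.

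**Figure D3:**
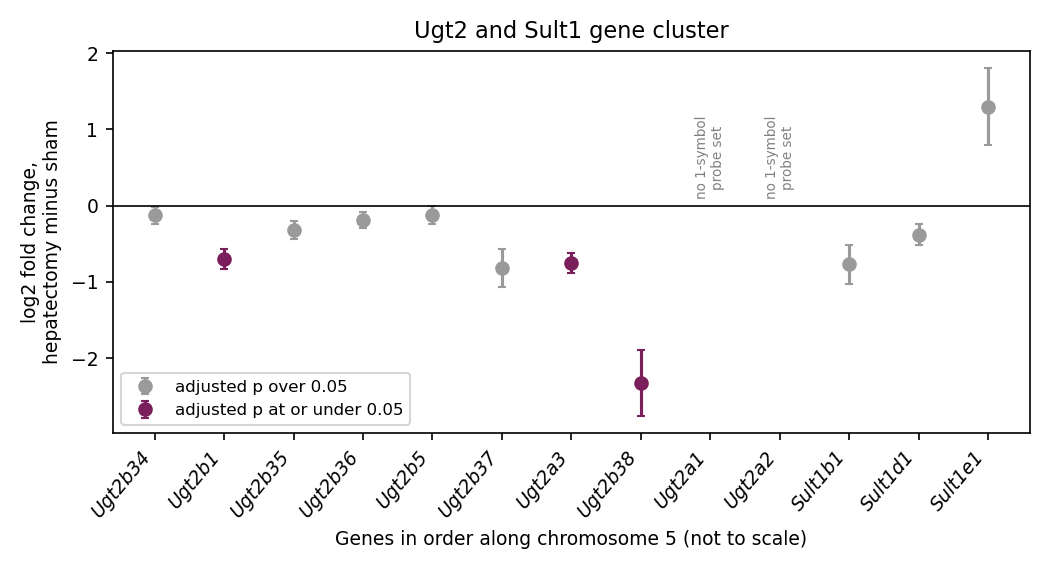
Log2 fold change (y axis, hepatectomy minus sham; bars are SE, n = 2 arrays per group) of the Ugt2 and Sult1 genes in their order along chromosome 5, evenly spaced. The 3 called genes are in purple. Ugt2a3 (-0.76) and Ugt2b38 (-2.33) are neighbours, and Ugt2b1 (-0.70) is separated from them by genes that did not pass.

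On mouse chromosome 5, 11 of the 22 member genes lie in one cluster. In the order of RefSeq (GRCm38.p6) these are Ugt2b34, Ugt2b1, Ugt2b35, Ugt2b36, Ugt2b5, Ugt2b37, Ugt2a3 and Ugt2b38, then Ugt2a1 and Ugt2a2, which had no probe set of their own, then Sult1b1, Sult1d1 and Sult1e1. No other protein-coding gene lies between the first and the last of these 13. The changes were uneven along the cluster: Ugt2b1 fell while Ugt2b34 and Ugt2b35 at its sides, at -0.13 and -0.32, did not pass. Ugt2a3 and Ugt2b38, next to each other, both fell. At the far end Sult1d1 (-0.38) and Sult1e1 (1.30) were neighbours with values of opposite sign, neither of which passed. Differences between neighbours were not tested.

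**Figure D4:**
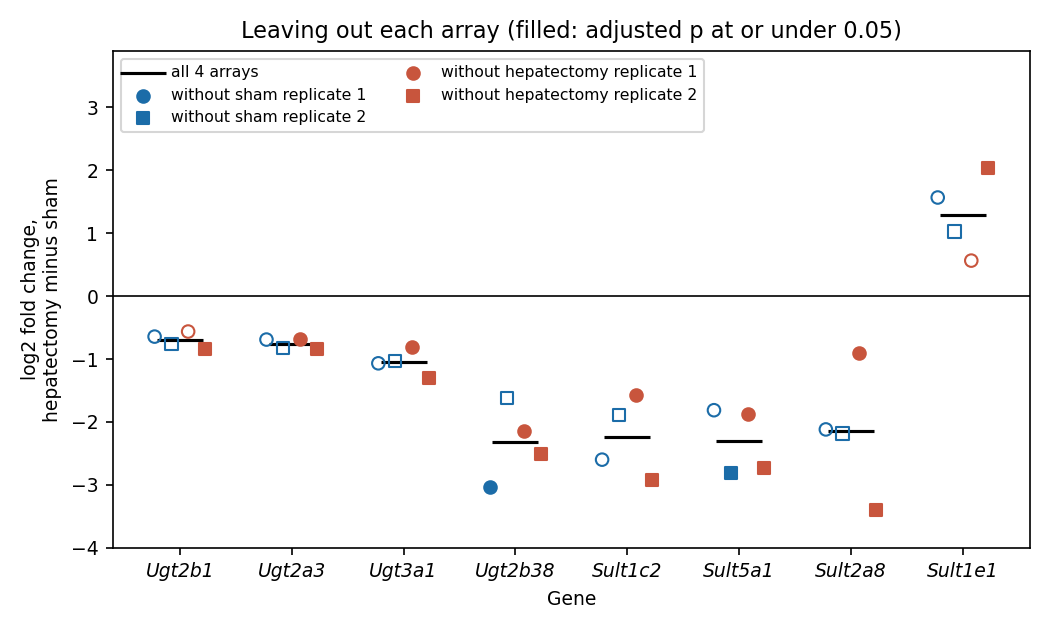
Log2 fold change (y axis, hepatectomy minus sham) of the 6 called genes, Sult2a8 and Sult1e1 with all 4 arrays (black bars) and with each array left out (blue for a sham array, red for a hepatectomy array); filled symbols passed an adjusted p of 0.05. Sult2a8 has the widest span, from -3.40 to -0.90.

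The genes that supply the donors and remove the conjugates were looked at beside the members. Of 16 symbols 14 had a probe set and were tested; Sts had none, and Impad1 is an older name of Bpnt2. By limma 1 of the 14 was called lower, against 1.09% of all genes tested, and 0 were called higher, against 3.57%. At an unadjusted limma p under 0.05, 1 was lower and 0 were higher. The median log2 fold change was 0.00. The called gene was Papss2, the main PAPS synthase of liver, which makes the sulfate donor. It read 6573 and 6356 in sham liver and 4058 and 4052 after hepatectomy (-0.67 ± 0.12, adjusted p = 0.0215). The groups did not overlap. Another probe set of Papss2 was called as well (-0.77 ± 0.15, adjusted p = 0.03), while a dimmer one did not pass (-0.92 ± 0.23, adjusted p = 0.0855). The call of Papss2 was lost without either sham array, without the filter and without the trend.

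Papss1, the other synthase, read 477 and 634 against 582 and 673 (0.18 ± 0.22, adjusted p = 0.754). Ugp2, which makes UDP-glucose, was read differently by its probe sets. Its brightest was not called (-0.25 ± 0.11, adjusted p = 0.317), and 1 of the other 4 tested was, reading 2764 and 2508 against 1448 and 1525 (-0.82 ± 0.15, adjusted p = 0.0261). All 5 had values below 0. Ugdh, which oxidises UDP-glucose to UDP-glucuronate, read 7969 and 6125 against 6801 and 5972 and did not pass (-0.13 ± 0.15, adjusted p = 0.74). Gusb, the lysosomal enzyme that removes glucuronate, read 1350 and 991 against 1266 and 1244 (0.12 ± 0.20, adjusted p = 0.83).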

How the data were processed

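The authors deposited 1 intensity per probe set and array on a linear scale. The submitters' processing notes name GCOS 1.4; its settings and detection calls are not stated in the sources used here. Groups came from the sample titles. Of 45101 probe sets 64 controls were left out. Symbols came from the platform annotation: 34945 probe sets had 1 symbol, 932 several and 9160 none. Signals were turned to log2 after adding 8.58, the 20th percentile of all values, which understates changes of dim genes. Probe sets with a mean under the 40th percentile (5.09) were left out. Groups were compared with lmFit and eBayes (mean-variance trend, 2 residual and 6.02 prior degrees of freedom) of limma 3.58.1 in R 4.3.3, and the code was tested on simulated data. The number of arrays limits the precision; SEs of the 17 genes ran from 0.11 to 0.63.

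Named genes were those called, the brightest of each subfamily and those with non-overlapping groups and an absolute log2 fold change of at least 1; the remaining members were added so that each is accounted for. Members, lists and tests were chosen with earlier results of these data known.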

Additional observations from a re-analysis of the deposited data

How the results depend on the processing

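Over all probe sets 916 were called, 308 without the filter, 258 without a trend, 1943 with the replicate number as a block and 341 to 2012 with an array left out. Of these last, 341 was the count without sham replicate 1, 479 that without its replicate 2 and 2012 that without hepatectomy replicate 2. With no filter and with no trend, 0 member probe sets, 0 member genes and 0 donor and deconjugation genes were called lower by limma; at an unadjusted p under 0.05, 13 and 9 member probe sets, 11 and 8 member genes and 1 and 1 donor and deconjugation genes were. The cause was not tested. With an array left out, member probe sets called lower ranged from 1 to 8, member genes from 1 to 7, and donor and deconjugation genes from 0 to 1; members called higher ranged from 0 to 1 in probe sets and in genes, the 1 being Sult1e1. Leaving out a hepatectomy array takes the gap of that pair out of the fit, so a call gained there is no support. Offsets of 1 and 32, a filter at the 60th percentile, median centring, quantile normalization, leaving out probe sets that may match several transcripts and averaging a gene's probe sets left 5 to 7 member genes called lower. No named member changed sign under any alternative in which it was tested; where groups do not overlap, leaving out an array cannot turn the sign, and the filter and the trend leave the fold change as it is. With median centring the median over all probe sets went from 0.00 to -0.09 (log2 fold change) and that over the member genes from -0.70 to -0.79.

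The labels do not say that a replicate number marks a shared animal, litter or day, and the replicate differences of the 2 groups correlated at 0.10 over 27022 probe sets. With the replicate number as a block, 7 member genes were called lower, Sult2a8 (-2.15, adjusted p = 0.000379) being the added one.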

Other observations

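Outside the families chosen, Ugt8a, the galactosyltransferase of myelin lipids, had a probe set at 32.6 and 27.0 in sham liver and 35.9 and 5.74 after hepatectomy, with overlap, and another at or under 9.64 on every array. Sult6b1 was at or under 7.22 on every array. None of these 3 probe sets passed the filter.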
